A study of Mus musculus with 4 samples.

Results

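The inhibitory synapse genes *Gabrb2*, *Glra2*, *Gabbr1* and *Gphn* were followed through the RNAseq libraries of *Ptbp2* knockout and wild-type mouse brain. The deposited tables list exon trios, a middle exon with its neighbor on each side. All trios were taken whose chromosome, strand, middle exon length and both intron lengths match an annotated transcript of these genes. This gave 73 trios of 218362, with 61 middle exons in the 4 genes. Of the 73, 3 hold a middle exon that the database labels as a cassette exon (class CA-CA) and 70 one that it labels as constitutive (CA-CS). *Gabrb2* had 11 trios, *Glra2* 7, *Gabbr1* 29 and *Gphn* 26.

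GABA and glycine are the main inhibitory transmitters of the brain. GABA-A receptors and glycine receptors are chloride channels built from 5 subunits of one family, and *Gabrb2* encodes the β2 subunit of the former and *Glra2* the α2 subunit of the latter. Gephyrin, the product of *Gphn*, is the scaffold under the inhibitory postsynaptic membrane that holds both kinds of channel in place, and it also has an enzymatic role in the synthesis of the molybdenum cofactor. *Gabbr1* encodes a subunit of the GABA-B receptor, which is not a channel but couples to G proteins. Its 1a and 1b forms start at different promoters. PTBP2 is a neuronal RNA-binding protein of the polypyrimidine tract binding family that regulates the choice of alternative exons.

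The E18 NesKO library came from whole brain of embryos in which Cre under the nestin promoter deletes the floxed exon 4 of *Ptbp2* in neural progenitors and their descendants, and the E18 wild-type library came from littermates, with 2 brains in each library. The P1 EmxKO library came from cortex of an animal with Emx1-Cre, which acts in the projection neuron lineage of the forebrain, and the P1 wild-type library from a littermate, 1 animal each. The mice are of a mixed C56Bl/6:129S2 background, as the labels spell it, and whether the wild types carry a floxed allele is not given in the sources used here. The P1 libraries were strand specific. Age, tissue, Cre line and protocol all differ between E18 and P1 and cannot be told apart. With 1 library per group nothing here has a replicate check, and the tests below compare libraries and not genotypes.

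The libraries held 49445721 to 85073560 reads on distinct exon junctions. The deposited PSI of *Ptbp2* exon 4, the targeted exon, was 0.1 in the NesKO, 99.9 in the E18 wild type, 15.9 in the EmxKO and 67.5 in the P1 wild type. The P1 wild type thus also held transcripts without exon 4, with 604 skipping reads, and the P1 differences below are those between the libraries so labelled. A fixed list of 5 brainstem and midbrain neuron markers summed to 29.4 and 33.4 RPM at E18 and to 0.696 and 0.741 at P1. RPM here is the reads on the distinct junctions of a gene that join a middle exon to a neighbor. It is scaled to 1000000 reads over all distinct junctions of the library. All 5 genes of a cortical projection neuron list were above 1 RPM in every library, with sums of 190, 242, 461 and 526.

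Exons of the 4 genes that vary are shown first. A 68-nt exon stands early in the coding sequence of both channel subunits. It is exon 4 of *Gabrb2*, at chr11:42236083-42236150 on the plus strand (mm9), and exon 3 of *Glra2*, at chrX:161727531-161727598 on the minus strand. The sequences come from the GENCODE transcripts (release 21), 5′ to 3′, and capitals mark the 35 of 68 positions at which these exons are the same.

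Gabrb2 exon 4: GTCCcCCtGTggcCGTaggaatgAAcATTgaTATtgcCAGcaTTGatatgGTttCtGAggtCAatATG
Glra2 exon 3: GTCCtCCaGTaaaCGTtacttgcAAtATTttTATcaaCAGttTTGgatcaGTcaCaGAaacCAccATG

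Its length leaves a remainder of 2 after division by 3. Read from the annotated start codon, *Gabrb2* with exon 4 has 474 codons, and without it 95 codons before a TGA stop codon that begins at base 117 of exon 5. *Glra2* has 452 codons with exon 3 and 80 without it, before a TGA at base 39 of exon 4.

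The labelled cassette exons are shown next. These are exon 9 of the long *Gabrb2* transcript at chr11:42415617-42415730 and exon 8 of a *Gphn* transcript at chr12:79594937-79595044, both on the plus strand and in frame. They add 38 and 36 codons. The *Gabrb2* exon belongs to the long form of the β2 subunit, with 512 codons where the short form has 474. The last cassette exon, exon 15 of *Gabbr1* at chr17:37204159-37204309 on the plus strand, is 151 nt long and shifts the frame. Without it the open reading frame ends after 577 of 960 codons, at a TGA that begins at base 27 of exon 16. Capitals mark every TCTT or CTCT on the transcript strand, short pyrimidine words of the kind that PTB proteins are known to bind, and only that strand was searched.

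Gabrb2 exon 9: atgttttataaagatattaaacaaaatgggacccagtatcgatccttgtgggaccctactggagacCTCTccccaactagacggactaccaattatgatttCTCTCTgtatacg
Gphn exon 8: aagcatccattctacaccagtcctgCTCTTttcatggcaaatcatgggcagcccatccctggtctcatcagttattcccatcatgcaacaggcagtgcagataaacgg
Gabbr1 exon 15: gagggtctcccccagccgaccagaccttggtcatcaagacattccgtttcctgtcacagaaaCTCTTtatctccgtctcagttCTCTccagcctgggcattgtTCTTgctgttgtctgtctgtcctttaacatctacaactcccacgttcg

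The *Gabrb2* exon holds CTCT 3 times, with overlapping matches counted singly, and no TCTT. Of 1541 coding-gene middle exons of 114 nt, 40.8% hold CTCT. The *Gphn* exon holds each word 1 time, in 1 overlapping run, and 33.5% and 38.1% of 1605 exons of 108 nt hold TCTT and CTCT. The *Gabbr1* exon holds each word 2 times, and 46.5% and 49.4% of 941 exons of 151 nt hold TCTT and CTCT at least 1 time. Neither 68-nt exon holds either word, which 24.3% and 27.2% of 828 exons of that length do. Intron sequence was not analysed here.

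Inclusion of most exons of these genes differed by less than 1 point between knockout and wild type. PSI is the percentage of transcripts in which the middle exon is kept, as deposited after the SpliceTrap correction, and a difference of at least 10 points with 20 or more junction reads in each of the libraries was counted as a change. At E18, 71 of the 73 trios had the reads, and 1 of them, in *Gabbr1*, was lower in the NesKO by this cutoff while none was higher. Of all trios tested at E18, 11.5% of CA-CA and 1.6% of CA-CS trios passed the cutoff. At P1, none of 72 tested trios passed it, against 9.81% of CA-CA and 0.841% of CA-CS trios. The median absolute difference was 0 points at both stages, as it was over all trios. Differences stayed under 1 point in 64 of 71 trios at E18 and 63 of 72 at P1, beside 88.7% of all trios at either stage.

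When inclusion and skipping reads were compared by Fisher's exact test (two-sided, adjusted by Benjamini-Hochberg over all trios), 0 of the 71 trios at E18 and 0 of the 72 at P1 had an adjusted p below 0.05. In the background this share was 0.218% at E18 and 0.438% at P1. Before adjustment, 1 trio at E18 and 5 at P1 had p below 0.05, a share that was not computed over all trios. That at E18 was exon 7 of *Gphn*, of 273 nt, with 9 reads that skip it in the NesKO against 4 in its wild type, singled out after its values were seen. Inclusion was close to complete in most trios of these genes, of which 70 of 73 hold an exon labelled as constitutive. How this compares with all trios was not tested. The deposited PSI was 99 or more in 62, 61, 65 and 61 of the trios with 20 junction reads of the NesKO and its wild type at E18 and of the EmxKO and its wild type at P1, which numbered 71, 71, 72 and 72. The trio just outside the read minimum at E18, exon 9 of *Gphn*, had 10 reads in each E18 library, and the trio with the fewest reads inside it had 60 in the NesKO.

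**Figure D1:**
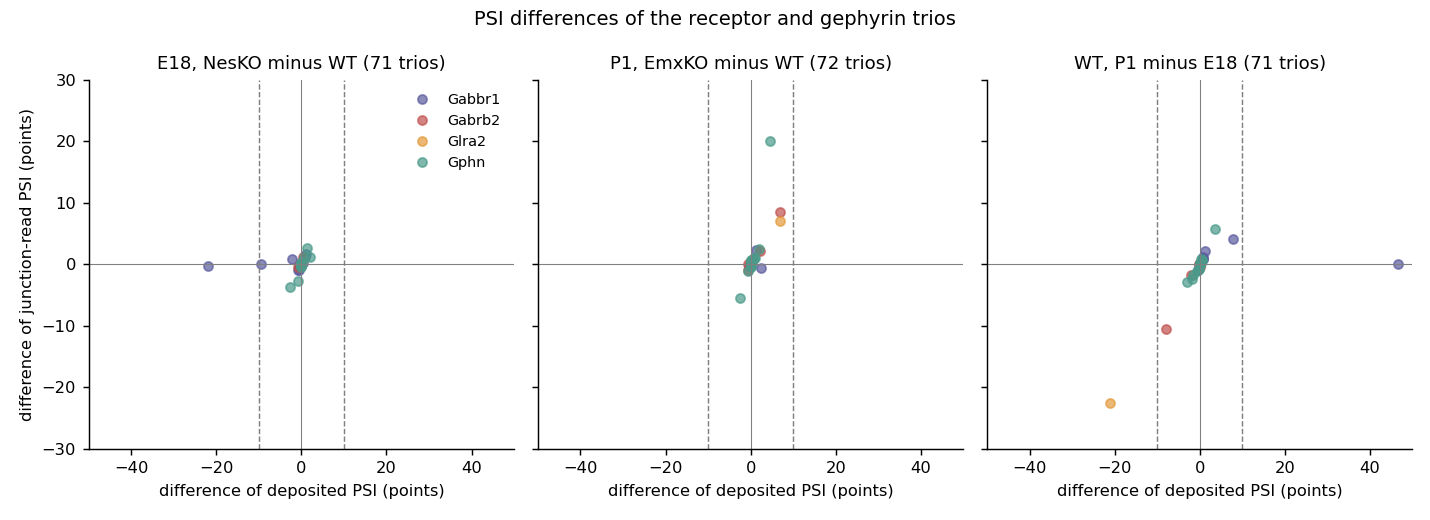
Each point is a trio of *Gabbr1*, *Gabrb2*, *Glra2* or *Gphn*, with the difference of the deposited PSI on the horizontal axis and of the PSI from junction reads on the vertical axis, both in points, for E18, P1 and the wild types. Dashed lines stand at 10 points to either side. Most points lie at the origin, the *Gabbr1* point at -21.9 at E18 lies at -0.24 on the vertical axis, and the *Glra2* point between the wild types is negative on both.

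*Gabrb2* carries the β2 subunit of the most common adult GABA-A receptors. Its 68-nt exon 4 had a deposited PSI of 99.9 in the NesKO, 99.9 in the E18 wild type, 98.7 in the EmxKO and 91.9 in the P1 wild type. No read joined exon 3 to exon 5 in either E18 library, where the mean of the inclusion junctions was 67 reads (NesKO) and 131.5 reads (wild type). At P1 there were 3 skipping reads in the EmxKO, against 148.5 inclusion reads, and 43 in the wild type, against 365. The P1 wild type was the library with skipping above the others. As a share of skipping over its sum with the mean inclusion reads, these are 1.98% (95% Wilson interval, 0.676 to 5.66%) in the EmxKO and 10.5% (7.92 to 13.9%) in the P1 wild type. The intervals do not overlap.

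The difference of 6.8 PSI points at P1 stayed below the cutoff. Fisher's exact test gave p = 0.000436 before adjustment and an adjusted p of 0.0882. Between the wild types the PSI was 8 points lower at P1 with an adjusted p of 0.000875 by the same exact test. At E18 the smallest skipping share that the reads could show, 3 reads of the total, was 4.48% for the NesKO and 2.28% for its wild type. Limits and intervals of this kind reflect counting error alone, because reads copied by PCR from 1 fragment are not separate molecules. These limits and the upper Wilson bounds at E18, 5.42% in the NesKO and 2.84% in its wild type, lie below the share in the P1 wild type, while a share as in the EmxKO would not have been detectable at the E18 depth.

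The 114-nt cassette exon of *Gabrb2* had a low PSI in every library. Its PSI was 0.8 in the NesKO, 1.7 in the E18 wild type, 0.7 in the EmxKO and 1.4 in the P1 wild type. Skipping reads numbered 69, 82, 150 and 385 in the same order. In this trio the inclusion reads of a library did not exceed 5 on either junction. The left junction had more reads in a trio of the 245-nt exon before it, with 3, 3, 8 and 33. The interval and test below use the counts of the 114-nt trio. The short form was the main one in all 4 libraries, and the adjusted Fisher's exact p for knockout against wild type was 1 at both stages. The Wilson interval of the skipping share in the shallowest library, the NesKO, reached from 93.5 to 99.9%.

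*Glra2* encodes the α2 subunit, the glycine receptor subunit that prevails in the embryonic brain. Its 68-nt exon 3 had a PSI of 99.9 in both E18 libraries, 85.6 in the EmxKO and 78.7 in the P1 wild type. The E18 libraries had 0 skipping reads against means of 62.5 and 85 inclusion reads, with upper Wilson bounds of 5.79% (NesKO) and 4.32% (wild type). The EmxKO had 33 skipping reads against 180.5 and the P1 wild type 76 against 261. Skipping was 15.5% (11.2 to 20.9%) in the EmxKO and 22.6% (18.4 to 27.3%) in the P1 wild type. Both P1 libraries lay above both E18 libraries, and the intervals of the P1 libraries overlap.

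At P1 the EmxKO was 6.9 points higher in PSI, with an unadjusted Fisher's exact p of 0.048 and an adjusted p of 1. Between the wild types PSI fell by 21.2 points at P1, past the cutoff, with an adjusted p of 1.44e-06 by Fisher's exact test. This exon is known as one of a mutually exclusive pair in *Glra2*. The annotated transcript used here holds 1 exon 3, so reads of transcripts with the other exon of the pair do not count in this trio.

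*Gphn* is spliced into many forms, mostly by cassettes in the linker between its domains. The 108-nt cassette exon had a PSI of 11.1 in the NesKO, 9.1 in the E18 wild type, 10.2 in the EmxKO and 12.6 in the P1 wild type. Most gephyrin mRNA therefore lacked these 36 codons in all 4 libraries. Reads that skipped the exon numbered 189, 318, 281 and 292. The PSI from junction reads alone was 9.65 in the EmxKO and 15.1 in the P1 wild type. These values and the tests below use the counts of this trio. Its left inclusion junction had 27, 37, 31 and 57 reads here but 41, 50, 79 and 99 in a trio of the 273-nt exon before it. The right one had 18, 29, 29 and 47 here and 19, 32, 48 and 73 in a trio of the 135-nt exon after it. The knockout was 2 points higher at E18 and 2.4 points lower at P1, with unadjusted exact p values of 0.565 and 0.044 and adjusted p of 1 at both stages. The difference of the knockout effect between the stages, a Wald chi-square test on the junction reads, gave p = 0.0839 and an adjusted p of 1.

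A 57-nt exon of *Gphn*, exon 9 of the 24-exon transcript at chr12:79623885-79623941, had a PSI of 17.9 and 17 at E18, knockout first, and of 20.7 and 16.2 at P1. It rests on few reads, with 10 and 10 at E18 and 32 and 56 at P1. In this trio no library had a read on its right junction. At P1 it was 4.5 points higher in the EmxKO by the deposited PSI and 19.98 points higher by junction reads alone, with an adjusted Fisher's exact p of 1. The trio of the 42-nt exon after it had 0 to 2 junction reads in any library and was not tested. This does not show that the 42-nt exon is absent. Its junction to the next exon, of 43 nt, had 6, 5, 25 and 31 reads in a trio of that exon.

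*Gabbr1* gave the most reads of the 4 genes and the trio past the cutoff at E18. Its 78-nt exon 14, at chr17:37201605-37201682 on the plus strand, had a deposited PSI of 78 in the NesKO library, against 99.9 in the other 3. The junction reads did not show this drop. Skipping reads numbered 1, 0, 0 and 3, and the junction reads alone gave 99.8 in the NesKO and 100 in the E18 wild type, with an adjusted Fisher's exact p of 1. In another trio of the same exon, with a different exon to its right, the deposited PSI was 43.6 and 53.2 at E18 and 99.9 in both P1 libraries, with 0 skipping reads in any library. The junction to the left of exon 14 had 141 and 189 reads at E18 and that to the right 694 and 1017. That other trio is the second of the 2 trios past the cutoff between the wild types.

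The 151-nt cassette exon of *Gabbr1*, exon 15, was included in most transcripts. Its PSI was 98.4 in the NesKO, 98.4 in the E18 wild type, 99.9 in the EmxKO and 99.6 in the P1 wild type. Skipping reads numbered 34 and 36 at E18 and 1 and 11 at P1. Skipping was 2.78% (2 to 3.87%) and 2.56% (1.86 to 3.53%) at E18, 0.0269% (0.00475 to 0.152%) in the EmxKO and 0.377% (0.211 to 0.674%) in the P1 wild type. By the counts of this trio the E18 libraries lay above the P1 libraries, and among the P1 libraries the EmxKO lay lower. The junction that skips exon 15 had other counts in other trios. In a trio of the 78-nt exon before it, the reads were 66, 72, 80 and 64 in the same order of libraries. A trio of the 133-nt exon after it gave 88, 84, 188 and 148. The order of the libraries and the tests here thus hold for this trio only, and other counts were not tested. Between the wild types the adjusted p was 1.41e-07 by Fisher's exact test, for 1.2 PSI points. At P1 the exact test gave p = 0.000843 and an adjusted p of 0.151 for 0.3 points. The stage difference of the knockout effect, by the Wald chi-square test, gave 0.00856 before adjustment, the lowest of the named exons, and 1 after it. None of the 71 trios tested at both stages passed this test, which 0.062% of all trios did.

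**Figure D2:**
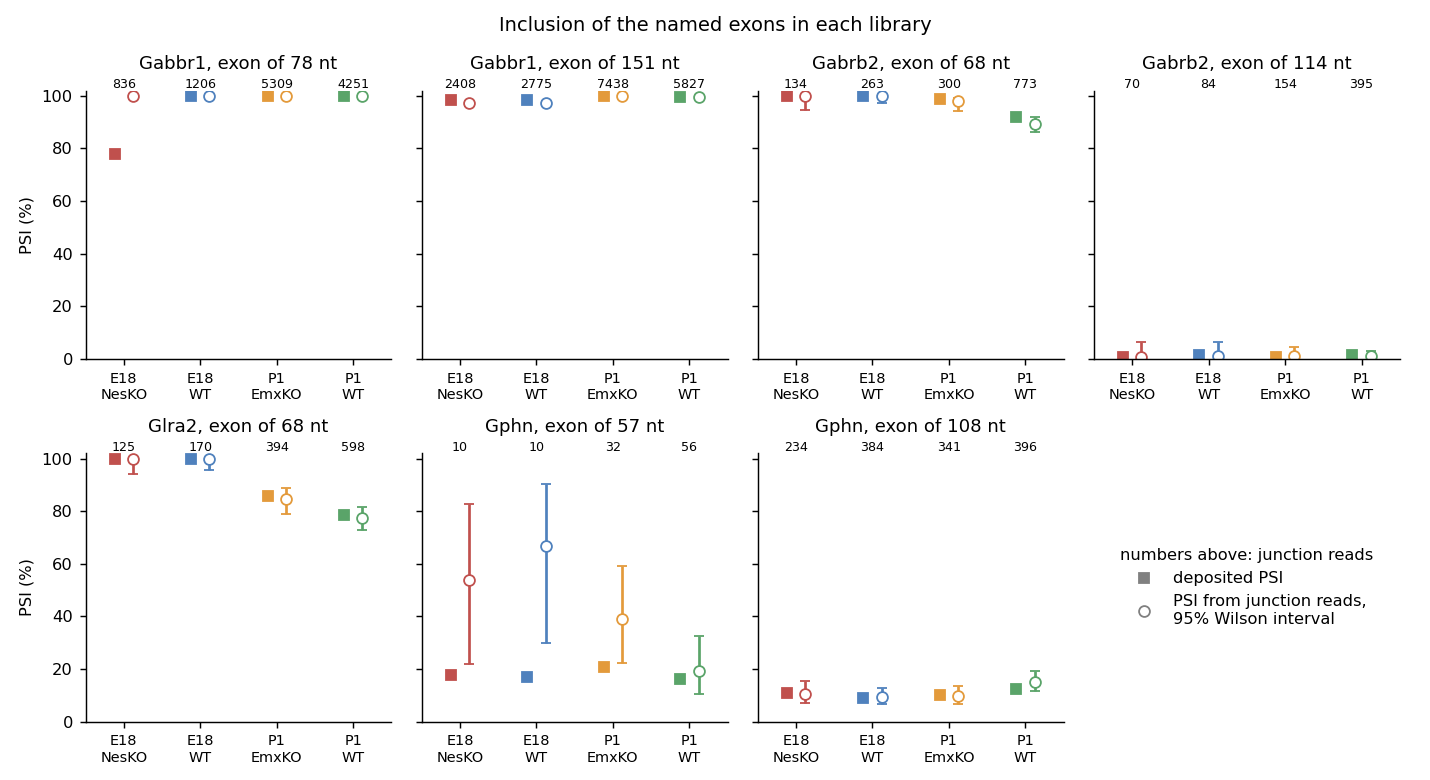
Inclusion of the 7 named exons in the 4 libraries, with PSI in percent on the vertical axis, squares for the deposited PSI and circles with 95% Wilson intervals for the PSI from junction reads. Numbers above each panel are junction reads. The 68-nt exons fall below 99.9 at P1 only, the 114-nt exon of *Gabrb2* stays below 2, and the square of the 78-nt exon of *Gabbr1* in the NesKO, at 78, lies apart from its circle.

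Between the wild types, 2 of 71 trios passed 10 points, the 68-nt exon of *Glra2* downward and the second trio of the 78-nt exon of *Gabbr1* upward. All trios passed at 21.4% in class CA-CA and 2.7% in class CA-CS. By Fisher's exact test 3 of 71 had an adjusted p below 0.05, the 68-nt exons of *Gabrb2* and *Glra2* and exon 15 of *Gabbr1*, against 1.63% of all trios. The call of exon 15 rests on the skipping reads of its own trio, 36 at E18 and 11 at P1. In a trio of the 133-nt exon after it, the same junction had 84 and 148 reads. Differences under 1 point were found in 61 of 71, beside 86% of all trios.

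Every one of the 24 genes for subunits of GABA-A and glycine receptors in the tables has a 68-nt middle exon, a length found in 0.458% of all middle exons. Set beside 20 other genes of the family, this exon was 36.8 to 75% identical, position by position, in *Gabrb2* and 38.2 to 80.9% in *Glra2*, where the closest was *Glra4*. Other 68-nt exons of coding genes had a median identity of 26.5% to either. In 10 positions the base was the same in all 24 genes. Skipping of this exon was compared across the family in the 13 to 15 genes that had 20 or more junction reads in a library.

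At E18 no gene of the family had 5% skipping or more, and 10 of 13 genes in the NesKO and 11 of 15 in the wild type had no skipping read. In the P1 wild type 4 of 14 reached 5%, among them *Glra2* with 22.6%, *Gabrb2* with 10.5% and *Gabrg3* with 5.88% on 2 skipping reads. Among the genes without a skipping read in any library were *Gabrb1* and *Glrb*, the latter with 934 junction reads in the P1 wild type. In the EmxKO 2 of 14 genes reached 5%, *Glra2* and *Gabrg3*. Of all CA-CS trios with 20 reads in the P1 wild type, 1.87% had at least 10% skipping, which in the family *Glra2* and *Gabrb2* alone reached there. The shares of all trios at 5% skipping or without a skipping read were not computed.

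**Figure D3:**
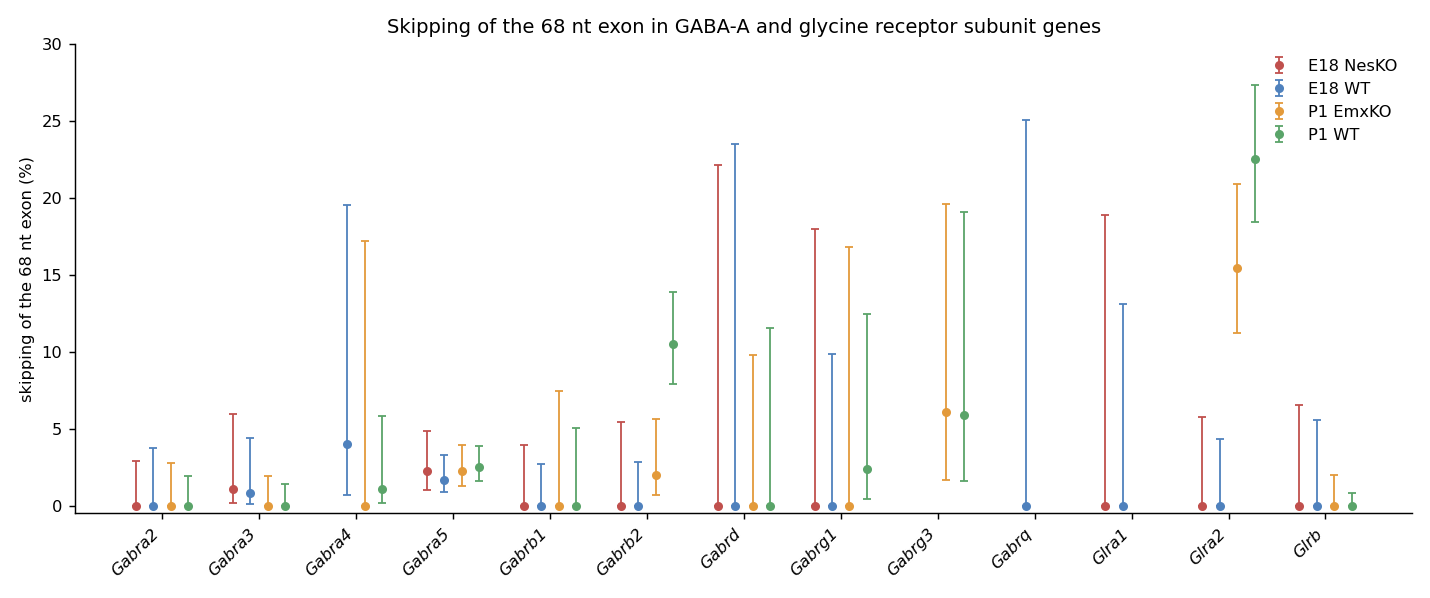
Skipping of the 68-nt exon in percent, with 95% Wilson intervals from junction reads, in subunit genes with at least 20 junction reads in a library, with 1 point per library; not all such genes are drawn. *Gabrb2* and *Glra2* in the P1 wild type stand at 10.5 and 22.6%, above the other genes drawn, and intervals are wide where reads are few.

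The amount of mRNA was followed by the RPM of each gene, which leaves out reads on junctions that appear only as skipping junctions. *Gabrb2* had 11.1 in the NesKO and 15.6 in the E18 wild type, and 12.9 in the EmxKO and 35.2 in the P1 wild type. The ratio of knockout to wild type was 0.711 (95% interval from counts, 0.636 to 0.793) at E18 and 0.367 (0.342 to 0.393) at P1. At P1 all 10 junctions compared were lower in the EmxKO, with ratios from 0.243 to 0.48. *Glra2* had 28.6 and 29.9 at E18, a ratio of 0.956 (0.888 to 1.03), and 26.5 and 38.2 at P1, a ratio of 0.693 (0.656 to 0.731) with 8 of 8 junctions lower. *Gphn* had 108 and 127 at E18 and 66.8 and 81.2 at P1, with ratios of 0.85 (0.819 to 0.881) and 0.822 (0.794 to 0.852). *Gabbr1* had 500 in the NesKO against 588 at E18, a ratio of 0.85 (0.835 to 0.864), and 814 in the EmxKO against 638 at P1, a ratio of 1.28 (1.26 to 1.29) and 23 of 24 junctions higher.

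Among all genes with 100 reads, the median ratio was 0.963 at E18 and 1.03 at P1, and 6.68% and 17.5% were at least 1.5-fold lower in the knockout. Of the 4 genes none was 1.5-fold lower at E18 and *Gabrb2* alone was at P1, where 3.11% of genes had a ratio as low. In bulk tissue, fewer cells of a type and less RNA per cell cannot be told apart. The 5 neuron markers summed to 892 RPM in the NesKO and 1165 in its wild type, and to 1322 in the EmxKO and 1723 in its wild type. Of these 5, *Stmn2* went the other way at E18, with a ratio of 1.08, and *Rbfox3* at P1, with 1.24. The part of the marker differences in the ratios of the 4 genes was not tested. *Gad1* and *Gad2*, which mark inhibitory neurons, had knockout to wild type ratios of 0.827 and 0.839 at E18. At P1 they differed from each other, with ratios of 0.99 for *Gad1* and 0.504 for *Gad2*. The 3 microglia markers were higher in the knockouts, at 84 against 60 and at 48.5 against 31.3.

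Levels of different genes were compared per junction. In the P1 wild type the median junction had 28.7 RPM in *Gabbr1*, 4.97 in *Glra2*, 4.37 in *Gabrb2* and 3.35 in *Gphn*. In the E18 wild type it had 24.5 in *Gabbr1*, 4.11 in *Glra2*, 4.07 in *Gphn* and 1.64 in *Gabrb2*. *Gabbr1* was the highest in both, and *Glra2* and *Gphn* were close at E18. Set against the E18 wild type, the RPM in the P1 wild type was 2.26 times as high for *Gabrb2*, 1.28 times for *Glra2*, 1.08 times for *Gabbr1* and 0.639 times for *Gphn*.

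The other GABA-A and glycine receptor subunits were lower in the knockouts in most cases. Of those with 100 reads, 12 of 14 had a ratio below 1 at E18, with a median of 0.699, and 10 of 12 at P1, with a median of 0.615. The medians over all genes with 100 reads were 0.963 and 1.03, and the share of all genes below 1 was not computed. At least 1.5-fold lower were 6 of the 14 and 7 of the 12, beside 6.68% and 17.5% of all genes. *Gabra4* had 0.291 at P1, and *Glrb*, the glycine receptor β subunit that binds gephyrin, had 0.37. *Gabbr2*, the partner of *Gabbr1* in the GABA-B receptor, had 0.737 at E18 and 1.08 at P1. Over the 33 and 30 genes measured of a list of 46 genes of inhibitory synapses, the medians were 0.737 and 0.934.

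**Figure D4:**
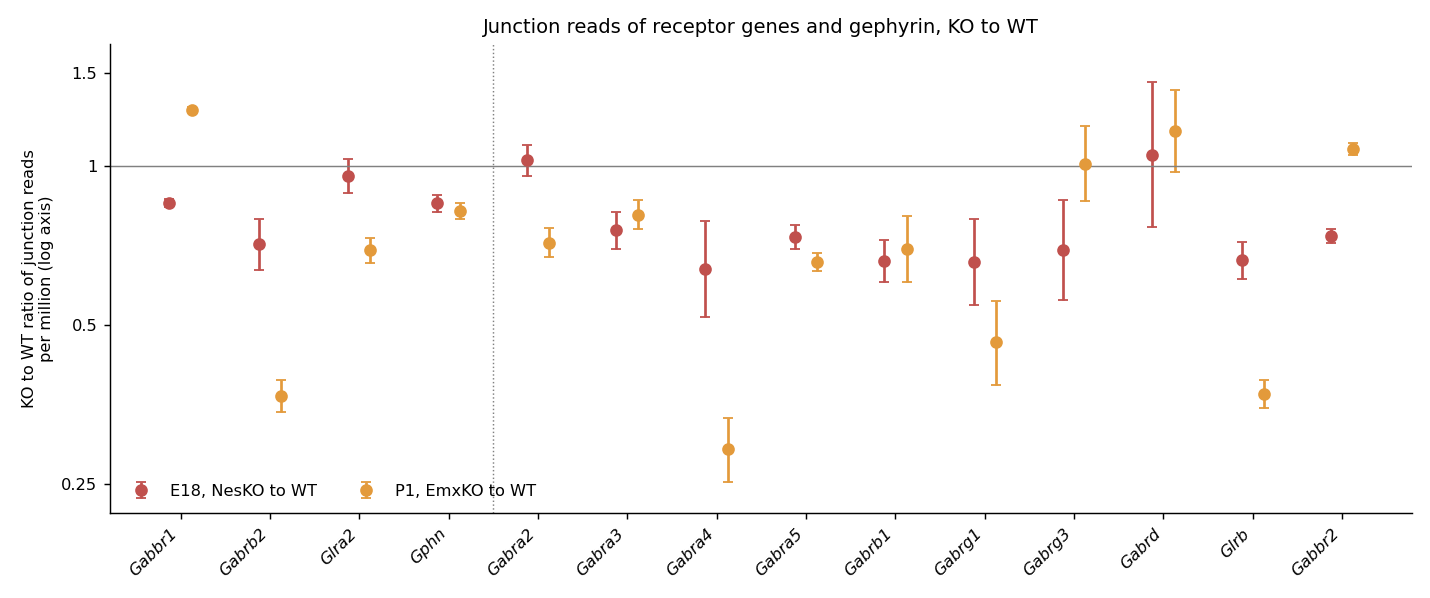
Ratio of RPM, knockout to wild type, on a log axis at E18 and P1, with 95% intervals from read counts, for the 4 genes on the left and some other receptor subunits with 100 reads at both stages on the right. *Gabrb2* stands at 0.711 and 0.367, and *Gabbr1* lies below 1 at E18 and above 1 at P1.

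*Gabbr1* starts at 2 promoters. The long 1a transcript has 960 codons in 23 exons and the 1b transcript 844 codons in 18 exons. The 5 junctions found only in the 1a transcript were set beside the 5 nearest of the 17 that it shares with 1b, a comparison chosen after the data were seen. The ratio of their median reads was 1.11 in the NesKO and 1.2 in the E18 wild type, and 0.517 in the EmxKO and 0.493 in the P1 wild type. The 1a-only junctions did not all go the same way. Against the median of the near shared junctions, 3 of 5 (introns 2 to 4) were lower at P1, in the wild types as in the knockouts, and 2 of 5 (introns 1 and 5) were higher. Between the wild types, intron 3 went from 1.72 to 0.493, whereas intron 1 went from 0.465 to 0.568 and intron 5 from 0.0828 to 0.115. Taken as sums over the same junctions, the ratios were 1 and 0.957 at E18 and 0.466 and 0.446 at P1. Reads per junction were uneven within each set. The junction between exons 5 and 6 had 55, 89, 447 and 319 reads, the lowest of the 1a-only set in each library. A ratio near 1 can therefore not be read as the absence of 1b.

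**Figure D5:**
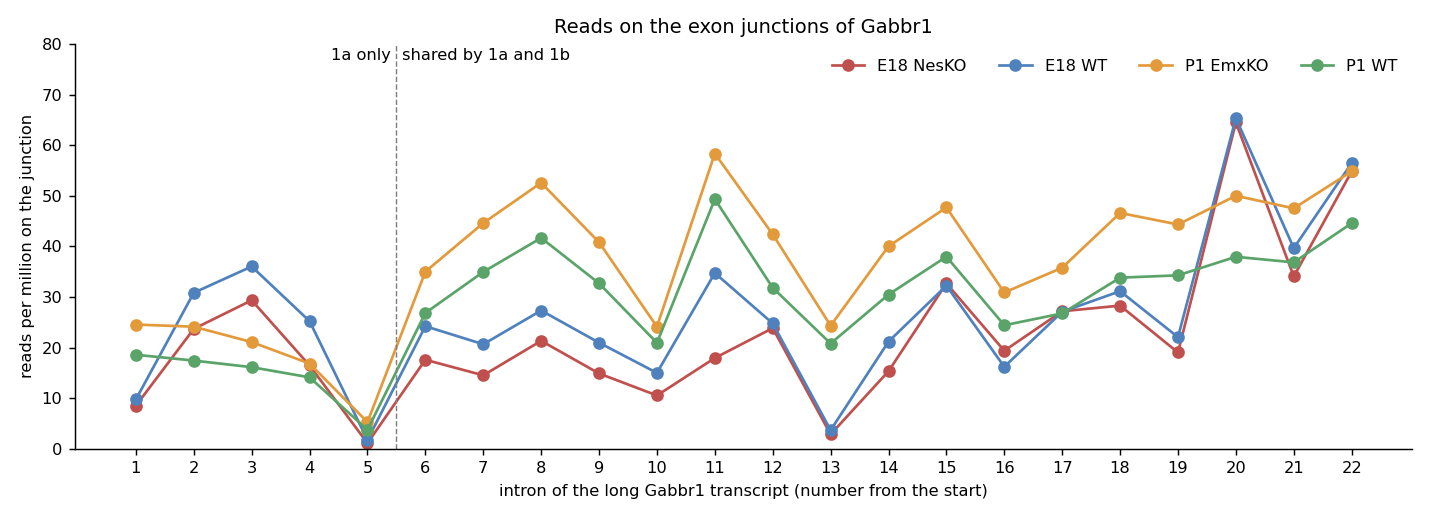
Reads on each junction of the long *Gabbr1* transcript in the 4 libraries, in RPM, by the number of the intron from the start of the gene. Left of the dashed line are the 5 junctions of 1a only, where the E18 wild type lies above the P1 libraries at introns 2 to 4, and right of it the 17 shared junctions, of which those at introns 6 to 19 are highest in the EmxKO.

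A further *Gabbr1* trio was singled out after its values were seen. Its 145-nt middle exon at chr17:37186598-37186742 belongs to a transcript annotated for nonsense-mediated decay and shares its end with the 21-nt exon 5. The deposited PSI was 7.2 and 9.5 at E18 and 19.6 and 17.2 at P1, whereas the junction reads alone gave 96.7, 95.8, 99.4 and 100. The left inclusion junction of this trio had 5, 7, 11 and 6 reads and the right one, which the 21-nt exon shares, 54 to 296. That right junction is the one given above with 55, 89, 447 and 319 reads, its highest counts over the trios that hold it. Knockout and wild type differed by 2.3 points at E18 and 2.4 at P1.

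In the list of 46 genes around the same synapses, with other receptor subunits, scaffolds, transporters and enzymes of GABA and glycine, 43 had trios. At E18, 5 of 346 tested trios were higher and 1 lower by 10 points, which is 1.73%, and at P1 3 of 334 were higher and none lower, 0.898%. The 3 at P1 hold the same middle exon, and 3 of the 5 higher at E18 hold it too. Over all tested trios, 3236 of 152612 passed 10 points at E18 and 2013 of 152222 at P1. The cassette exons of *Gabrb2*, *Gphn* and *Gabbr1*, in the same libraries, differed by 0.9, 2 and 0 points at E18 and by 0.7, 2.4 and 0.3 points at P1.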

How the data were processed

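PolyA+ RNA was sequenced as paired reads of 100 nt, 1 library per group. The authors mapped the reads with SpliceTrap to a database of exon trios, and the deposited inclusion ratios are fractions before and after its correction, shown here in percent. The deposited junction reads are counts per junction within a trio, without normalization. The same junction can have different counts in different trios. Tests and PSI from junction reads used the counts of the trio itself, whereas RPM used the highest count of each junction. How the tests depend on this choice of counts was not tested. Coordinates are mm9, the build in the submitters' processing notes. Trios were named by GENCODE release 21, and no coordinates were converted.

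For PSI from junction reads, the mean of both inclusion junctions was divided by the total of that mean and the skipping reads. The rounded mean entered Fisher's exact test, and p was adjusted by Benjamini-Hochberg over all CA-CA and CA-CS trios with 20 reads in both libraries. The Wald test of the stages had 0.5 added to each count. Named exons are all tested cassette exons, and constitutive ones past 10 points or below 95 by both measures. Some genes of the lists are not reported here. The members and lists were chosen with earlier results of these data known. The calculations used Python 3.11.15, numpy 2.4.6, pandas 2.3.3, scipy 1.17.1 and matplotlib 3.10.9 and were tested on simulated data. Alternatives were other read minimums, cutoffs, ratios and trios.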

Additional observations from a re-analysis of the deposited data

Results flagged for a closer look

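Junction reads of *Gabbr1*, the GABA-B receptor subunit, moved in opposite directions at the 2 stages. The ratio of knockout to wild type was 0.85 at E18 and 1.28 at P1, with 1 library in each group, and this difference between the stages was not tested. Sums of the neuron markers were lower in the knockout at both stages, though *Stmn2* was higher at E18 (ratio 1.08) and *Rbfox3* at P1 (1.24). The part of the markers in the *Gabbr1* difference was not tested.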

How the results depend on the processing

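The counts of changed trios depend on the measure. At E18 the 1 trio became 0 by junction reads alone, 0 when an adjusted Fisher's exact p was also required and 2 at a cutoff of 5 points. At P1 the count of 0 became 1 with no read minimum, 1 by junction reads alone and 2 at 5 points. Between the wild types the count of 2 became 4 at 5 points, 3 with no read minimum, 1 with the adjusted p and 1 with 1 trio per middle exon. By junction reads alone it was again 2, but 0 higher and 2 lower in place of 1 and 1. Of 41 alternative values for the named exons, 36 stayed on their side of the cutoff. The exceptions were the 78-nt exon of *Gabbr1*, with -0.24 points by junction reads and -9.6 in its other trio at E18 and 46.7 in that trio between the wild types, the 57-nt exon of *Gphn* with 19.98 points by junction reads at P1, and the 68-nt exon of *Gabrb2* with -10.5 by junction reads between the wild types. The cause was not tested. Without the 1% of junctions with the most reads, the *Gabbr1* ratios were 0.88 and 1.31. With all shared junctions, the 1a ratios were 0.85, 1.02, 0.476 and 0.477. No paired analysis was possible because each group has 1 library. Depth limits small skipping shares of the 68-nt exons at E18 and the 57-nt exon at both stages.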
